A study of Mus musculus with 18 samples.

Results

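The guidance genes described here encode the mouse semaphorins, plexins, neuropilins, Slits, Robos, netrins and Unc5 receptors. They were taken as every gene whose symbol begins with Sema and a digit, Plxn, Nrp and a digit, Slit and a digit, Robo and a digit, Unc5, or Ntn and a digit. Each gene was read from the probe set with its highest mean over 18 arrays, so no difference between populations entered the choice of probe set. The members and the rule were chosen with earlier results of these data known. The rule found 48 symbols among 22180 genes. Of these, 45 are guidance genes: 26 ligands (7 secreted semaphorins, 13 membrane semaphorins, 3 Slits and 3 netrins) and 19 receptors (9 plexins, 2 neuropilins, 4 Robos and 4 Unc5 receptors). The other 3 match the rule by their letters and are not counted as guidance ligands or receptors: Unc50, Unc5cl, and Plxna4os1, a transcript antisense to Plxna4. All 48 passed the filter on dim genes, which asked for at least 3 arrays above the 40th percentile of their own values. The filter let in some members that are near the bottom of the scale, which are named below.

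The study measured RNA of cells sorted from normal neck muscle and from tumors driven by hedgehog signalling, a mouse model of fusion-negative rhabdomyosarcoma, a cancer with features of developing muscle. Every animal carried aP2-Cre, in which promoter sequence of Fabp4 (aP2, a lipid carrier of fat cells and some endothelium) drives the recombinase, and tdTomato, a red reporter that Cre turns on for good in a cell and its descendants. Marked (Tomato-positive, n = 3) and unmarked (Tomato-negative, n = 3) muscle cells came from the sternocleidomastoid of mice of strain B6;SJL at day 21, genotype aP2-Cre/+;tdTomato/+, which the label of marked repeat 1 writes aP2-Cre/+;tdTomato. The tumor mice (aP2-Cre/+;tdTomato/+/;SmoM2/+, strain BJ;SJL;B6.129) had in addition SmoM2, a version of Smoothened that keeps hedgehog signalling on. They gave unmarked tumor cells (Tomato-negative and Pecam1-negative, n = 4), marked tumor cells (Tomato-positive and Pecam1-negative, n = 4) and tumor endothelium (Tomato-positive and Pecam1-positive, n = 4), at day 48 in repeats 1 to 3 and day 38 in repeat 4. Pecam1 is an adhesion molecule of endothelium and some leukocytes. Muscle cells were not sorted on it, so the marked muscle cells are called endothelial here from their genes and not from a gate. Other cells may be among them.

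Guidance ligands were first known for steering growing axons, and the same families act on blood vessels. Secreted class 3 semaphorins bind neuropilins, which signal through plexins and also serve as coreceptors of vascular endothelial growth factor, while most membrane semaphorins bind plexins directly. Slits act through receptors of the Robo family. Robo4 is the endothelial member of that family. Netrins act through Dcc, Neo1 and the Unc5 receptors, of which Unc5b is found on endothelium.

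Values are deposited log2 intensities, and the number of arrays limits their precision. Array medians were 5.041 to 5.105 in muscle and 5.41 to 5.438 in tumor. The genes of the sort followed the labels: Pecam1 was 11.11 to 11.23 in marked against 7.82 to 8.38 in unmarked muscle cells, and 11.57 to 12.005 in tumor endothelium against 6.94 to 7.43 and 6.91 to 7.84 in marked and unmarked tumor cells. Gli1, a hedgehog target, was 8.53 to 9.73 in marked tumor cells, 6.59 to 7.72 in unmarked tumor cells and 5.10 to 5.58 in tumor endothelium. A list of 10 blood endothelial markers averaged 10.52 to 10.67 in marked muscle cells, 10.56 to 11.21 in tumor endothelium and at most 7.36 elsewhere. Salivary gland genes stood out in 2 of the 3 muscle repeats: a list of 10 averaged 6.57, 6.07 and 4.32 in marked and 8.63, 5.83 and 4.33 in unmarked repeats 1 to 3, and their part in the muscle results was not tested. In the deposited tumor values each repeat had the same mean over its 3 populations for every probe set (largest range 7.67e-05), so comparisons within a tissue use the repeat number as a block. The labels call the samples of a population biological repeats and name no animals. P-values within a tissue measure the spread left between samples once population and repeat means are removed, pooled over muscle and tumor. In bulk RNA of sorted cells, fewer cells of a type and less RNA per cell cannot be told apart.

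Guidance genes had their highest mean most often in marked tumor cells. Deposited tumor arrays have higher medians than muscle arrays, so this count was made as deposited and with every array centred on its median. As deposited, 17 of the 45 were highest in marked tumor cells (as were 28.9% of all genes tested), 15 in tumor endothelium (31.1%), 5 in unmarked tumor cells (20%), 5 in unmarked muscle cells (10.5%) and 3 in marked muscle cells (9.51%). Centred, the counts were 16 (21%), 10 (17.4%), 5 (14.8%), 9 (22%) and 5 (24.8%) in the same order. The members that moved were Ntn3, Sema3c, Sema3g, Sema4f, Slit1 and Unc5d. The widest spans between population means were 4.77 log2 units for Robo1, 4.66 for Robo4 and 4.19 for Sema7a. The narrowest were 0.29 for Sema4f, 0.304 for Slit1 and 0.361 for Unc5d, and these 3, with Sema4g and Ntn3, passed the threshold in no comparison. Sema3e, Sema4f, Sema4g and Robo3 exceeded the 40th percentile on 3, 4, 4 and 5 of 18 arrays, so their values lie near the bottom of the scale. Other members were this dim in some populations. No marked muscle array exceeded the 40th percentile for Sema3d or Unc5c, and 1 of 3 did for Plxnc1. In tumor endothelium 1 of 4 arrays did for Sema3c, Plxna3 and Plxnc1. For Robo2, 1 of 3 unmarked muscle arrays and 2 of 4 unmarked tumor arrays did. The bottom of the scale sets the size of differences from populations this dim. Levels set side by side across tissues below are as deposited. Standard deviations within a population ranged over the members from 0.009 to 0.664.

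**Figure D1:**
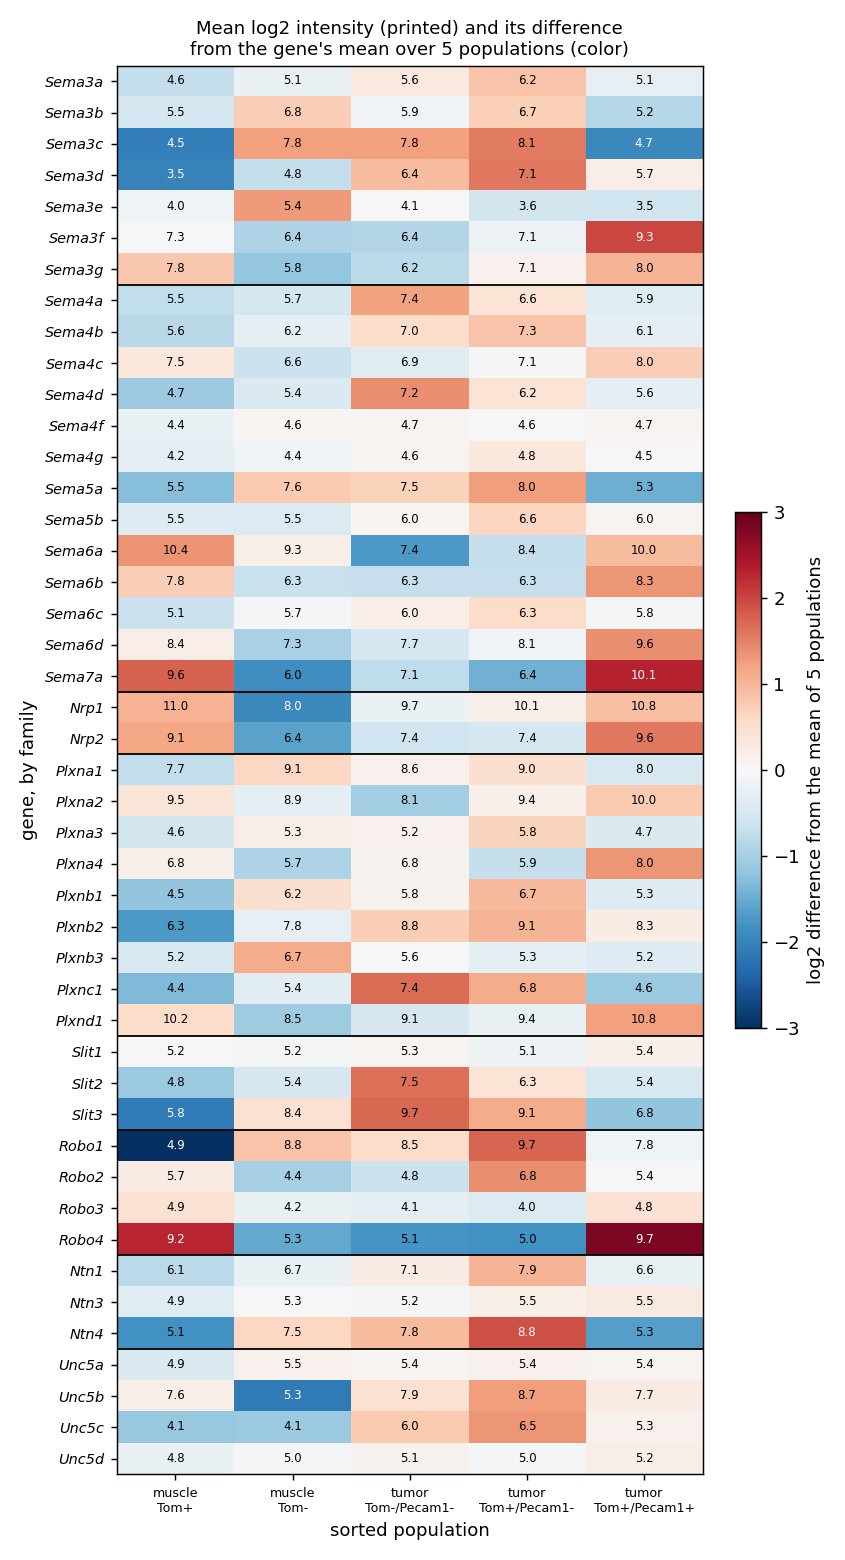
Mean log2 intensity of the 45 guidance genes (rows, by family) in 5 sorted populations (columns), over 3 muscle or 4 tumor arrays each, with the mean printed and its difference from the gene's mean over the populations in color. Robo4 stands at 9.16 and 9.70 in the endothelial populations and Sema3c at 4.54 and 4.65, while Robo1 is at 4.89 in marked muscle cells and 7.79 in tumor endothelium.

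In normal muscle the marked cells, which carry the endothelial genes, had more of both neuropilins, Robo4, Sema7a, Unc5b and Plxnd1 than the unmarked cells, and less Robo1, Sema3c, Slit3, Ntn4 and Sema5a. At an adjusted p of 0.05 by limma's moderated test, 15 of the 45 members were higher (background 15.6% of 16011 genes tested) and 15 lower (background 16.8%). Among ligands, 2 of 7 secreted and 5 of 13 membrane semaphorins were higher. On the lower side were 4 secreted semaphorins, 1 membrane semaphorin, 1 of 3 Slits and 2 of 3 netrins. Among receptors, 2 of 9 plexins, 2 of 2 neuropilins, 3 of 4 Robos and 1 of 4 Unc5 receptors were higher, and 5 plexins, 1 Robo and 1 Unc5 receptor were lower. The median difference was -0.26 over the members and -0.002 over all genes. In all 30 called members the arrays of both groups did not overlap. The same held for uncalled members such as Slit2, Sema4d and Plxna2, so it adds no support to the calls. Its share over all genes was not computed. The count of called members was 25 to 27 when any 1 array was left out. Without repeats 1 and 2, the repeats with salivary gland genes, 1 pair remains and is assumed to vary like the other groups, so no count is given. In that remaining pair, members whose calls did not hold had log2 differences of 1.62 for Sema6d, 1.46 for Sema6b, 1.31 for Robo2 and 1.26 for Sema6a. They were 1.18 for Sema3f, 1.09 for Plxna4, 0.72 for Robo3 and -0.37 for Plxna3. For Ntn1, Unc5a and Sema3d they were -0.66, -0.79 and -1.38.

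Markers of other cells stood higher in the unmarked muscle cells. Fibroblast markers averaged 10.66 to 10.75 there and 5.35 to 6.17 in marked cells, tenocyte markers 8.52 to 9.42 and 4.59 to 4.94, and myogenic markers 8.42 to 8.92 and 4.92 to 5.15. Pericyte and smooth muscle markers averaged 10.34 to 10.41 and 7.97 to 9.35, Schwann cell markers 6.62 to 6.87 and 4.699 to 5.02, and leukocyte markers 7.18 to 7.47 and 5.53 to 6.06. The part of these cells in the muscle differences was not tested.

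In the tumor the endothelium was set against both Pecam1-negative populations. Against marked tumor cells 13 members were higher (background 16.7%) and 23 lower (background 19.6%). Against unmarked tumor cells 15 were higher (background 16.1%) and 17 lower (background 17.9%). These comparisons share the endothelium arrays and are given side by side. The median of the members was -0.56 and -0.22, against 0.005 and 0.02 over all genes, and the counts were 33 to 36 and 28 to 33 when any 1 array was left out. Muscle and tumor share no arrays. There, 24 members were called both in muscle and between tumor endothelium and unmarked tumor cells, and all 24 had the same direction; over all genes 3191 were called in both, 97.6% of them in the same direction. Fibroblast markers averaged 10.09 to 10.88 in marked and 10.54 to 10.79 in unmarked tumor cells against 6.15 to 6.76 in endothelium, myogenic markers 8.56 to 9.04 and 6.57 to 7.94 against 5.12 to 6.16, and pericyte and smooth muscle markers 9.44 to 9.82 and 9.57 to 9.75 against 7.74 to 8.24. Their part in the tumor differences was not tested.

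In 13 members the marked muscle cells were higher than the unmarked, and the tumor endothelium higher than both other tumor populations: Robo4, Sema7a, Nrp2, Sema3f, Sema6a, Sema6b, Nrp1, Plxnd1, Sema3g, Sema6d, Plxna4, Sema4c and Robo3. The same 3 calls were met by 8.43% of all 16011 genes. In 9 members all these differences were lower (8.16% of all genes): Sema3c, Ntn4, Slit3, Sema5a, Sema3b, Plxnb1, Sema3d, Plxna1 and Plxnb2. Robo3 exceeded the 40th percentile on endothelial arrays alone (3 of marked muscle cells and 2 of tumor endothelium), so passing the filter required it to be high there, and Sema3d was below it on all marked muscle arrays. Some of these calls end without 1 array and are named with their values by family.

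Promoters are shown for 4 of the 13, those with the largest mean difference that have an entry in the RefSeq table, because these genes moved together in both tissues. Each runs 5′ to 3′ on the gene's strand from 250 bases before to 50 after the transcript start that the table lists, in build GRCm38.p6. For Robo4 and Sema7a that start lies within the gene as RefSeq lists it, downstream of the gene's own start. Capitals mark the E-box letters CAGCTG. Robo4 is at chr9:37401722-37402021 (plus strand), Sema7a at chr9:57939862-57940161 (plus strand), Nrp2 at chr1:62703067-62703366 (plus strand) and Sema6b at chr17:56140294-56140593 (minus strand, 1 of 2 entries).
Robo4: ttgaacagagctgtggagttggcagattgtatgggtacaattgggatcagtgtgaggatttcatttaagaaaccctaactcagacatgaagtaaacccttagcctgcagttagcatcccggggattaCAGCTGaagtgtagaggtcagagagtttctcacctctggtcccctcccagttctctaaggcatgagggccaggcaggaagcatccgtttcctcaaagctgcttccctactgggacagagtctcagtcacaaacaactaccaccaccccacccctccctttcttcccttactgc
Sema7a: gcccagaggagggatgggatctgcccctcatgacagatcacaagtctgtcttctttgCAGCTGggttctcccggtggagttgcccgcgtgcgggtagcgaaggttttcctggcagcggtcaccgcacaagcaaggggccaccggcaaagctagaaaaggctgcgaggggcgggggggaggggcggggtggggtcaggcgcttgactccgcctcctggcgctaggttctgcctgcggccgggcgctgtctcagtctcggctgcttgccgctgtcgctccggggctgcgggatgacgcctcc
Nrp2: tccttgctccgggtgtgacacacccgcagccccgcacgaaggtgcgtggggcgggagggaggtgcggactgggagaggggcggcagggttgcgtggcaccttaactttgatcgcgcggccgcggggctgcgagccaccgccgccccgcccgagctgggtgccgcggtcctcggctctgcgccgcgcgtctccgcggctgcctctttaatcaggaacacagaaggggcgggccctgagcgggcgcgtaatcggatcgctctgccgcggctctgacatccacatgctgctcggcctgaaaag
Sema6b: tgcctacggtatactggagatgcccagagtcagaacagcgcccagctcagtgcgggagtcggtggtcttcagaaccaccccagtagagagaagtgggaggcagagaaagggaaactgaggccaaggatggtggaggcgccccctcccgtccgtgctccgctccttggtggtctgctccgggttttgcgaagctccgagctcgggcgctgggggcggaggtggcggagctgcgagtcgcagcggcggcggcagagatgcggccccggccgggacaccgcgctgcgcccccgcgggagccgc
The Robo4 window had a GC content of 50.3%, against 67.3% for Sema7a, 70.7% for Nrp2 and 69.0% for Sema6b. The E-box letters begin at base 128 of the Robo4 window and base 58 of the Sema7a window, and the other windows hold none.

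Letters were searched on both strands of 50 promoter entries of 37 guidance genes. CGGAAG, a core of ETS factors, was in 2 (4.0%), against 16.9% of all 32851 promoters of the table. CCACCCA, a core of the hedgehog factors, was in 7 (14%), against 9.3% of all. CAGCTG was in 8 (16.0%), against 16.3%, and TGGGAA, a core of the Notch factor, in 10 (20%), against 25.6%. Among 13 entries of 10 of the 13 genes higher in endothelium, CGGAAG was in 0, CCACCCA in 1 (Sema3g), CAGCTG in 3 (Robo4, Sema3g and Sema7a) and TGGGAA in 2 (Sema3g and Sema6d). A match of letters is a description and not a known site.

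**Figure D2:**
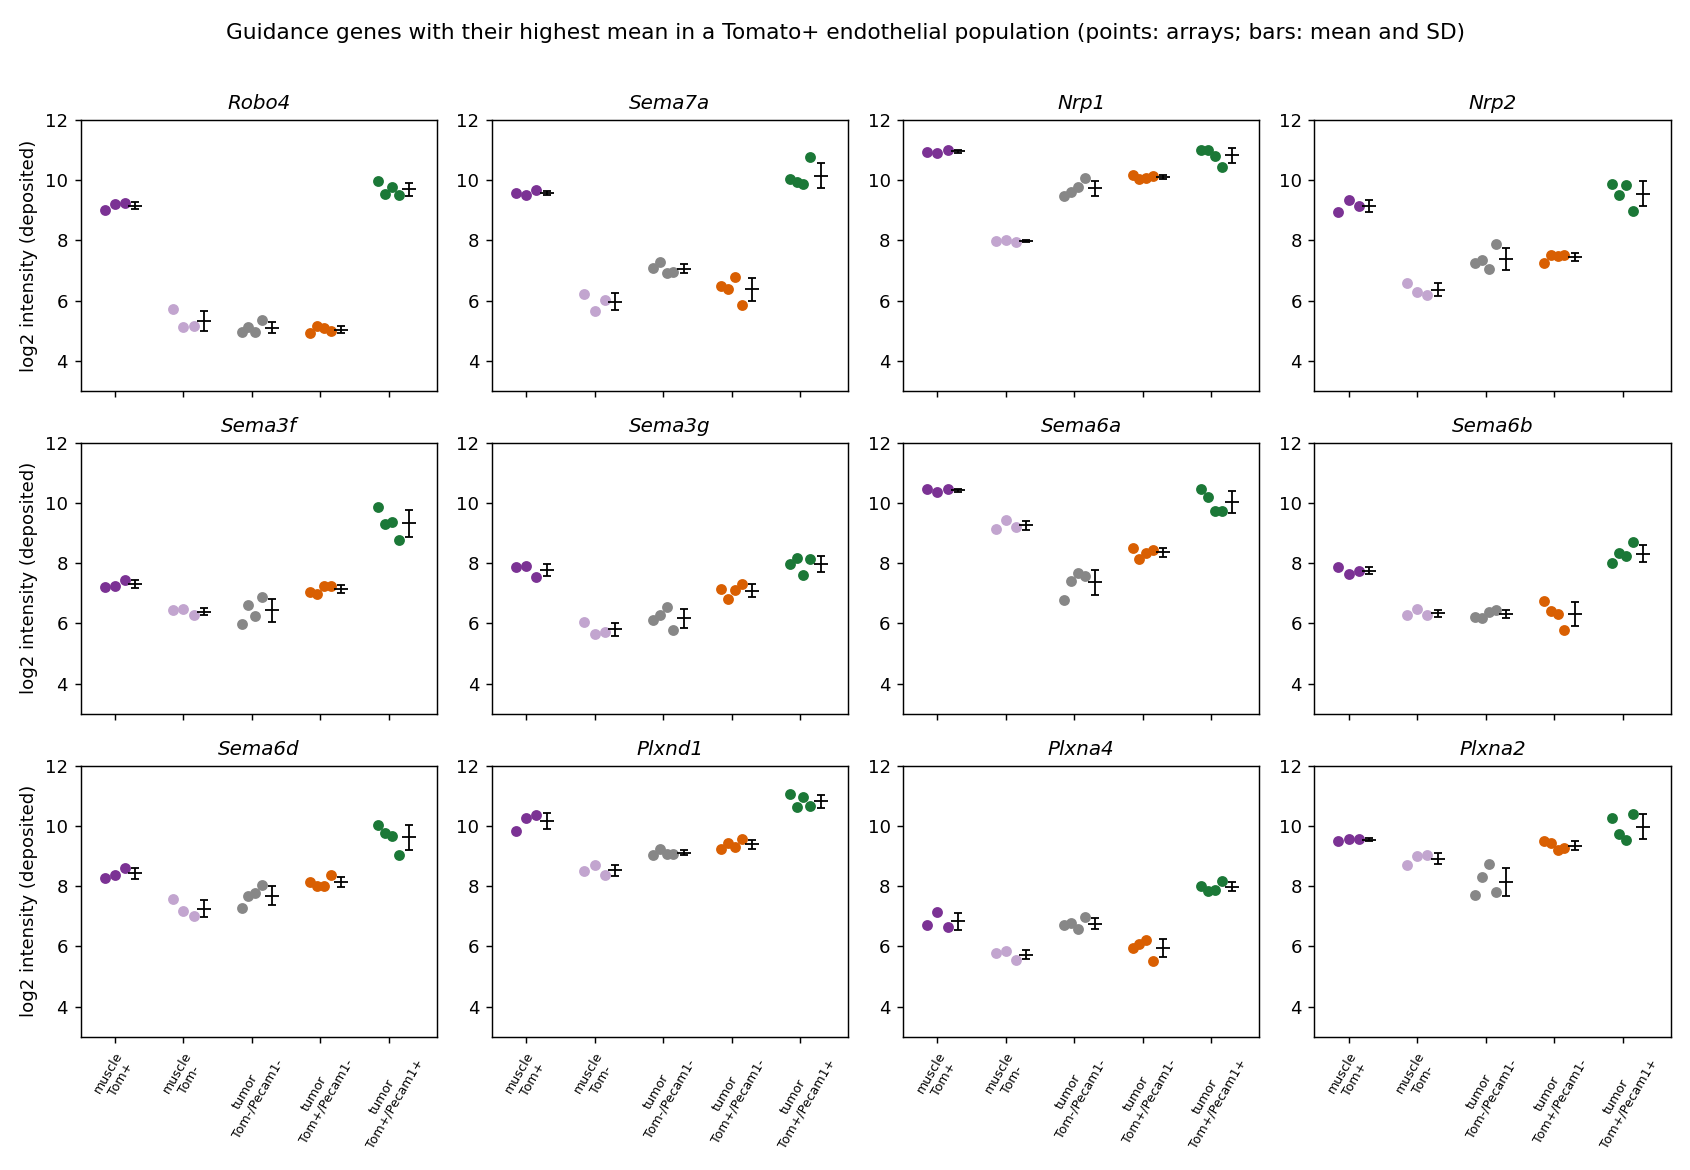
Deposited log2 intensity (vertical axis) of 12 guidance genes in 5 sorted populations (horizontal axis), with points for arrays and bars for mean and SD. Robo4 lies at 9.01 to 9.25 in marked muscle cells and 9.49 to 9.96 in tumor endothelium, and Sema3f at 7.21 to 7.46 and 8.77 to 9.87.

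Both neuropilins were higher in endothelium, with a smaller contrast for Nrp1 in the tumor. Nrp1, the receptor of Sema3a and a coreceptor of vascular endothelial growth factor, was at 10.94, 10.91 and 11.01 in marked and 7.97, 8.03 and 7.96 in unmarked muscle cells, repeats 1 to 3. In tumor repeats 1 to 4 it was at 11.01, 11.02, 10.81 and 10.45 in endothelium, 10.16, 10.03, 10.08 and 10.13 in marked and 9.48, 9.61, 9.76 and 10.06 in unmarked cells. Endothelial arrays lay above the others in both tissues, and all Pecam1-negative tumor arrays lay above the unmarked muscle arrays. Nrp1 was 7.84-fold higher in marked muscle cells (log2 2.97, SE 0.18, adjusted p = 1.86e-07), and 1.65-fold higher and 2.13-fold higher in tumor endothelium than in marked and unmarked tumor cells (adjusted p = 0.00287 and 0.000144).

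Nrp2, which binds Sema3f and the lymphatic growth factor Vegfc, was at 8.94, 9.34 and 9.13 in marked and 6.60, 6.28 and 6.18 in unmarked muscle cells. Its tumor values were 9.88, 9.51, 9.84 and 8.98 in endothelium, 7.25, 7.52, 7.48 and 7.501 in marked and 7.23, 7.34, 7.05 and 7.89 in unmarked cells. No endothelial array overlapped the others. Nrp2 was 6.87-fold higher in marked muscle cells (adjusted p = 6.38e-06), and 4.32-fold higher and 4.51-fold higher in tumor endothelium (adjusted p = 1.45e-05 and 1.31e-05). The contrasts in both tissues differed by -0.61 (95% interval -1.37 to 0.16, adjusted p = 0.341), which did not pass.

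Among the plexins, Plxnd1 and Plxna4 were higher in endothelium in both tissues. Means of members are given from here on in the order marked muscle, unmarked muscle, unmarked tumor, marked tumor and tumor endothelium. Plxnd1, the main endothelial plexin, averaged 10.16, 8.53, 9.11, 9.39 and 10.83. It was 3.09-fold higher in marked muscle cells (adjusted p = 1.08e-05) and 2.71-fold higher and 3.29-fold higher in tumor endothelium (adjusted p = 7.11e-06 and 1.71e-06). Plxna4, a receptor of class 3 and class 6 semaphorins, was at 6.70, 7.15 and 6.64 in marked and 5.78, 5.86 and 5.55 in unmarked muscle cells. The tumor arrays gave 8.02, 7.86, 7.89 and 8.17 in endothelium, 5.95, 6.07, 6.22 and 5.52 in marked and 6.72, 6.76, 6.58 and 6.99 in unmarked cells. The 3 tumor populations did not overlap, and marked tumor cells were lowest. Plxna4 was 2.14-fold higher in marked muscle cells (adjusted p = 0.000532, and 0.0691 without repeats 1 and 2) and 4.12-fold higher and 2.33-fold higher in tumor endothelium (adjusted p = 8.02e-07 and 7.33e-05).

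Plxna4os1, transcribed from within Plxna4, averaged 5.38, 5.10, 5.68, 5.34 and 6.37 and was also higher in tumor endothelium (adjusted p = 1.83e-05 and 0.000502). Whether its probe set reads Plxna4 RNA was not tested. Plxna2, a receptor of Sema6a, averaged 9.55, 8.92, 8.14, 9.35 and 9.98 and was 3.6-fold higher in tumor endothelium than in unmarked tumor cells (adjusted p = 8.36e-05). Its differences of 0.63 in muscle and 0.63 against marked tumor cells did not pass (adjusted p = 0.115 and 0.062). Unc50 averaged 8.35, 8.23, 8.28, 8.30 and 8.40 and Unc5cl 4.65, 4.27, 4.71, 4.80 and 4.96, with no call.

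Plxna1, Plxnb1 and Plxnb2 were lower in the endothelium of both tissues, and Plxnb3 in that of muscle. Plxnb1, the receptor of Sema4d, averaged 4.52, 6.19, 5.82, 6.67 and 5.32. It was 3.18-fold lower in marked muscle cells (adjusted p = 7.65e-06) and 2.56-fold lower in tumor endothelium than in marked tumor cells (adjusted p = 9.46e-06). Against unmarked tumor cells it was 1.42-fold lower (adjusted p = 0.0149), a call lost without repeat 2 or 3 of either population (0.0542 to 0.0659), with the mean of its probe sets (0.498) and in a fit of these groups alone (0.103). The other Plxnb1 probe set averaged 4.77, 4.82, 4.71, 5.56 and 4.98. It differed little in muscle and was higher, not lower, in tumor endothelium than in unmarked tumor cells. On the probe set used, 2 of 3 marked muscle arrays exceeded the 40th percentile, so the bottom of the scale limits the muscle fold.

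Plxnb2, a receptor of Sema4c, averaged 6.32, 7.81, 8.78, 9.07 and 8.26 and was 2.8-fold lower in marked muscle cells (adjusted p = 6.07e-06) and 1.75-fold lower and 1.43-fold lower in tumor endothelium (adjusted p = 0.000213 and 0.00562). Plxna1 averaged 7.74, 9.11, 8.61, 8.95 and 8.003, 2.58-fold lower in marked muscle cells (adjusted p = 1.01e-05) and 1.93-fold lower and 1.52-fold lower in tumor endothelium (adjusted p = 5.03e-05 and 0.00182). The other Plxna1 probe set averaged 6.0, 6.65, 7.05, 7.33 and 6.90. Plxnb3, a receptor of Sema5a, averaged 5.15, 6.71, 5.62, 5.33 and 5.22 and was 2.95-fold lower in marked muscle cells (adjusted p = 3.33e-05), while its tumor differences of -0.11 and -0.40 did not pass (adjusted p = 0.626 and 0.0747). Plxna3 averaged 4.56, 5.32, 5.24, 5.78 and 4.68 and was 2.14-fold lower in tumor endothelium than in marked tumor cells (adjusted p = 0.00133). Its call in muscle (1.69-fold lower, adjusted p = 0.0311) was lost without repeat 1 or 2 of either population (0.157 to 0.161).

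Plxnc1, the receptor of Sema7a, had its highest levels where leukocyte genes were highest. It was at 4.28, 4.27 and 4.59 in marked and 5.07, 5.36 and 5.72 in unmarked muscle cells, a difference of -1.01 that did not pass (adjusted p = 0.0593). Over tumor repeats 1 to 4 it was at 8.06, 7.57, 7.39 and 6.47 in unmarked cells, 6.54, 6.83, 6.98 and 6.91 in marked cells and 4.17, 4.37, 4.40 and 5.39 in endothelium. The endothelial arrays lay below the others of the tumor, among which marked and unmarked cells overlapped. Plxnc1 was 4.69-fold lower in endothelium than in marked (adjusted p = 0.000161) and 6.91-fold lower than in unmarked tumor cells (adjusted p = 2.97e-05). The 5 leukocyte markers, all measured, averaged 9.95, 9.65, 9.69 and 8.90 in the same unmarked samples, 7.28, 7.74, 7.51 and 7.32 in marked tumor cells and 5.82, 5.66, 5.85 and 6.84 in endothelium. The part of leukocytes in the result was not tested.

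Sema7a, a semaphorin anchored to the membrane by a lipid, had the largest differences of all ligands higher in endothelium. It was at 9.57, 9.52 and 9.66 in marked and 6.21, 5.65 and 6.02 in unmarked muscle cells. Tumor endothelium gave 10.03, 9.93, 9.86 and 10.76, marked tumor cells 6.47, 6.37, 6.80 and 5.86 and unmarked tumor cells 7.08, 7.28, 6.93 and 6.96. All 7 endothelial arrays lay above every other array. Sema7a was 12.3-fold higher in marked muscle cells (log2 3.63, SE 0.27, adjusted p = 7.7e-07) and 13.6-fold higher and 8.47-fold higher in tumor endothelium (SE 0.23 on the log2 scale, adjusted p = 1.07e-07 and 5.99e-07). Its receptor Plxnc1 had its lowest means in the same 2 populations, near the bottom of the scale. There 1 of 3 marked muscle and 1 of 4 endothelium arrays exceeded the 40th percentile.

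Of the class 6 semaphorins, Sema6a, Sema6b and Sema6d were higher in endothelium. Sema6a, a ligand of Plxna2 and Plxna4, averaged 10.43, 9.26, 7.36, 8.36 and 10.03, 2.25-fold higher in marked muscle cells (adjusted p = 0.00332, and 0.129 without repeats 1 and 2) and 3.18-fold higher and 6.36-fold higher in tumor endothelium (adjusted p = 6.71e-05 and 1.39e-06). Sema6b averaged 7.75, 6.34, 6.31, 6.32 and 8.33, 2.66-fold higher in marked muscle cells (adjusted p = 0.000496) and 4.01-fold higher and 4.05-fold higher in tumor endothelium (adjusted p = 7.45e-06 and 8.01e-06). Sema6d, a ligand of Plxna1, averaged 8.43, 7.26, 7.69, 8.14 and 9.62 and was 2.8-fold higher and 3.81-fold higher in tumor endothelium (adjusted p = 0.000294 and 3.98e-05). Its muscle call (2.26-fold higher, adjusted p = 0.00485) was lost without repeat 3 of either population (log2 0.95, adjusted p = 0.0585). Sema6c averaged 5.14, 5.74, 5.99, 6.34 and 5.75, and its call against marked tumor cells (1.5-fold lower, adjusted p = 0.0336) was lost without marked repeat 1, 2 or 3 or endothelium repeat 2, 3 or 4 (0.0606 to 0.136).

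Sema4c, a ligand of Plxnb2, averaged 7.53, 6.57, 6.86, 7.15 and 7.96 and was 1.95-fold higher in marked muscle cells (adjusted p = 0.00148) and 1.75-fold higher and 2.14-fold higher in tumor endothelium (adjusted p = 0.00169 and 0.000188). Sema5a, a ligand of Plxnb3, went the other way. It was at 5.74, 5.08 and 5.70 in marked and 7.65, 7.45 and 7.62 in unmarked muscle cells. Tumor endothelium gave 5.33, 5.27, 5.08 and 5.54, marked tumor cells 8.32, 8.23, 8.02 and 7.54 and unmarked tumor cells 7.16, 7.31, 7.71 and 7.73. No endothelial array overlapped the others, and Sema5a was 4.2-fold lower in marked muscle cells (adjusted p = 1.97e-05) and 6.6-fold lower and 4.51-fold lower in tumor endothelium (adjusted p = 4.54e-07 and 3.51e-06). Sema4b averaged 5.60, 6.16, 6.998, 7.28 and 6.15, 2.19-fold lower and 1.8-fold lower in tumor endothelium (adjusted p = 0.000727 and 0.00561, the latter 0.0684 in a fit of these groups alone). Sema5b averaged 5.53, 5.52, 5.97, 6.57 and 6.01 and was 1.48-fold lower in tumor endothelium than in marked tumor cells (adjusted p = 0.00307). The dim Sema4f and Sema4g averaged 4.38, 4.64, 4.66, 4.59 and 4.67 and 4.19, 4.41, 4.57, 4.80 and 4.50.

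Sema4d, the ligand of Plxnb1, and Sema4a, both made by immune cells, were highest in unmarked tumor cells. Sema4d averaged 4.74, 5.39, 7.22, 6.25 and 5.57, with 7.85, 7.42, 6.89 and 6.73 in unmarked tumor repeats 1 to 4. Sema4a averaged 5.47, 5.70, 7.44, 6.64 and 5.85, with 7.95, 7.54, 7.32 and 6.93 in the same samples. In tumor endothelium they were 3.14-fold lower and 3-fold lower than in unmarked tumor cells (adjusted p = 0.000212 and 0.00013). Against marked tumor cells, Sema4a (1.72-fold lower, adjusted p = 0.0145) lost its call without marked repeat 4 or endothelium repeat 1 (0.0621 to 0.0636). Sema4d (1.6-fold lower, adjusted p = 0.0483) lost it without any 1 of the marked arrays or endothelium repeats 1 to 3 (0.0551 to 0.183). The leukocyte list was at 8.90 to 9.95 in unmarked tumor cells, 7.28 to 7.74 in marked tumor cells and 5.66 to 6.84 in endothelium, and 4 measured of 5 lymphocyte markers at 7.83, 6.90, 6.66 and 5.62 in unmarked repeats 1 to 4. Their part in these differences was not tested.

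Of the secreted semaphorins, Sema3f and Sema3g were higher in endothelium. Sema3f, the ligand of Nrp2, was at 7.21, 7.25 and 7.46 in marked and 6.44, 6.48 and 6.28 in unmarked muscle cells. Its tumor values were 9.87, 9.32, 9.39 and 8.77 in endothelium, 7.05, 6.99, 7.25 and 7.25 in marked and 5.98, 6.60, 6.26 and 6.89 in unmarked cells. Tumor endothelium lay above all other arrays, those of marked muscle cells included. Sema3f was 4.6-fold higher and 7.48-fold higher in tumor endothelium (adjusted p = 1.34e-05 and 1.37e-06). In marked muscle cells it was 1.88-fold higher (adjusted p = 0.023), a call lost without any 1 of the 6 muscle arrays (log2 0.77 to 0.98, adjusted p = 0.0662 to 0.145). Sema3g averaged 7.78, 5.81, 6.18, 7.09 and 7.98, 3.91-fold higher in marked muscle cells (adjusted p = 2.11e-05) and 1.85-fold higher and 3.48-fold higher in tumor endothelium (adjusted p = 0.00272 and 1.25e-05).

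Sema3c, a neuropilin ligand, had the largest lower difference of all ligands in muscle. It was at 4.66, 4.67 and 4.29 in marked and 8.19, 7.33 and 7.93 in unmarked muscle cells. Tumor endothelium gave 4.52, 4.46, 4.50 and 5.13, marked tumor cells 8.28, 8.03, 8.35 and 7.92 and unmarked tumor cells 7.81, 8.12, 7.76 and 7.56. The endothelial arrays of both tissues lay below all others. Sema3c was 9.67-fold lower in marked muscle cells (log2 -3.27, SE 0.24, adjusted p = 8.03e-07) and 11.3-fold lower and 8.94-fold lower in tumor endothelium (adjusted p = 9.42e-08 and 2.18e-07). As 2 of 3 marked muscle and 1 of 4 endothelium arrays exceeded the 40th percentile, the bottom of the scale sets the size of these folds. Sema3b, which has 3 protein-coding genes between itself and Sema3f in the RefSeq order of GRCm38.p6, went against Sema3f. It averaged 5.52, 6.77, 5.92, 6.74 and 5.17, 2.37-fold lower in marked muscle cells (adjusted p = 5.66e-05) and 2.97-fold lower and 1.68-fold lower in tumor endothelium (adjusted p = 1.93e-06 and 0.000962).

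Sema3d, Sema3a and Sema3e lie near each other in that order, with 0 protein-coding genes between Sema3d and Sema3a and 3 between Sema3a and Sema3e. Sema3d averaged 3.52, 4.82, 6.44, 7.12 and 5.73. It was lower in marked muscle cells (adjusted p = 0.00296), where no array exceeded the 40th percentile, and 2.6-fold lower in tumor endothelium than in marked tumor cells (adjusted p = 0.000644). Against unmarked tumor cells its call (1.63-fold lower, adjusted p = 0.0382) was lost without unmarked repeat 2 or 3 or endothelium repeat 2, 3 or 4 (0.0912 to 0.156). Sema3a, the ligand of Nrp1, averaged 4.60, 5.11, 5.60, 6.18 and 5.07 and was 2.16-fold lower in tumor endothelium than in marked tumor cells (adjusted p = 0.000552). Its call against unmarked tumor cells (1.44-fold lower, adjusted p = 0.0469) was lost without unmarked repeat 3 or 4 or endothelium repeat 1, 2 or 3 (0.0652 to 0.186). Sema3e, a direct ligand of Plxnd1, averaged 3.99, 5.41, 4.12, 3.57 and 3.51. It exceeded the 40th percentile on the 3 unmarked muscle arrays and on no other, so passing the filter required it to be high there, and its calls give it no support in any comparison it is counted in (lower in muscle, in tumor endothelium against unmarked tumor cells, in marked against unmarked tumor cells, and in tumor endothelium against marked muscle cells).

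Robo4, the endothelial Robo, was higher in the endothelium of both tissues. It was at 9.01, 9.21 and 9.25 in marked and 5.71, 5.13 and 5.14 in unmarked muscle cells. Its tumor values were 9.96, 9.55, 9.79 and 9.49 in endothelium, 4.91, 5.16, 5.10 and 4.98 in marked and 4.96, 5.13, 4.94 and 5.37 in unmarked cells. The highest array outside the endothelium was unmarked muscle repeat 1 and the lowest within it marked muscle repeat 1. Robo4 was 14.2-fold higher in marked muscle cells (log2 3.83, SE 0.19, adjusted p = 7.41e-08) and 25.3-fold higher and 24.2-fold higher in tumor endothelium (SE 0.17 on the log2 scale, adjusted p = 2.42e-09 and 2.89e-09).

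Robo3, a divergent Robo known from axons that cross the midline, is the next protein-coding gene to Robo4 in the RefSeq order and had the same direction at dim levels. It was at 5.18, 4.67 and 4.699 in marked and 4.15, 4.43 and 3.98 in unmarked muscle cells. Tumor endothelium gave 4.75, 4.68, 4.93 and 4.94, marked tumor cells 4.003, 4.21, 3.97 and 3.75 and unmarked tumor cells 4.18, 4.05, 4.04 and 4.25. The 3 marked muscle arrays and 2 of the 4 endothelium arrays exceeded the 40th percentile, and no other array did. The groups did not overlap in either tissue, but the filter admitted Robo3 through its endothelial arrays alone, so its calls there (adjusted p = 0.00848, 0.000594 and 0.00259) are given without a fold and are no support. The muscle call was lost without repeat 1 or 3 of either population (0.0547 to 0.0975).

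Robo1, a widely used Slit receptor, was low in the endothelium of muscle but not in that of the tumor. It was at 4.93, 4.69 and 5.05 in marked and 8.72, 8.98 and 8.63 in unmarked muscle cells. The tumor arrays gave 8.37, 7.33, 7.74 and 7.73 in endothelium, 9.50, 9.85, 9.33 and 9.95 in marked and 8.04, 8.73, 8.84 and 8.23 in unmarked cells. Tumor endothelium overlapped unmarked tumor cells and lay above every marked muscle array. Robo1 was 14.8-fold lower in marked muscle cells (log2 -3.88, SE 0.29, adjusted p = 9.62e-07) and 3.65-fold lower in tumor endothelium than in marked tumor cells (adjusted p = 9.04e-05). Against unmarked tumor cells the difference of -0.67 did not pass (95% interval -1.22 to -0.11, adjusted p = 0.0619).

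Robo2, the next protein-coding gene to Robo1, was at 5.68, 5.77 and 5.56 in marked and 4.52, 4.48 and 4.24 in unmarked muscle cells. Its tumor values were 5.49, 5.06, 5.64 and 5.43 in endothelium, 6.84, 6.86, 7.03 and 6.48 in marked and 4.64, 5.05, 4.30 and 5.06 in unmarked cells. Marked tumor cells lay above all other arrays. Robo2 was 2.38-fold higher in marked muscle cells (adjusted p = 0.000914, and 0.0798 without repeats 1 and 2) and 2.64-fold lower in tumor endothelium than in marked tumor cells (adjusted p = 0.000106). Against unmarked tumor cells its call (1.56-fold higher, adjusted p = 0.0225) was lost without repeat 1 or 3 of either population (0.0687 to 0.0883) and in a fit of these groups alone (0.0939).

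Among the Slits, the ligands of Robos, Slit3 was lower in the endothelium of both tissues. It was at 6.16, 5.42 and 5.93 in marked and 8.59, 8.29 and 8.37 in unmarked muscle cells. Tumor endothelium gave 6.88, 6.68, 6.64 and 6.94, marked tumor cells 9.15, 9.23, 9.31 and 8.63 and unmarked tumor cells 9.53, 9.65, 9.61 and 9.98. All endothelial arrays lay below all others, and Slit3 was 5.98-fold lower in marked muscle cells (adjusted p = 9.87e-07) and 4.9-fold lower and 7.49-fold lower in tumor endothelium (adjusted p = 5.13e-07 and 7.32e-08). Slit2 was at 4.97, 4.51 and 4.77 in marked and 5.16, 5.61 and 5.34 in unmarked muscle cells, a difference of -0.62 that did not pass (adjusted p = 0.199). Its tumor values were 5.26, 5.70, 5.15 and 5.501 in endothelium, 6.42, 6.503, 6.64 and 5.499 in marked and 7.51, 6.99, 7.40 and 8.18 in unmarked cells. Unmarked tumor cells lay above all other arrays, and Slit2 was 4.34-fold lower in endothelium than in them (adjusted p = 0.00013). Against marked tumor cells its call (1.82-fold lower, adjusted p = 0.0382) was lost without marked repeat 1, 2 or 3 or endothelium repeat 1, 3 or 4 (0.0541 to 0.142). Slit1 averaged 5.22, 5.17, 5.32, 5.08 and 5.38.

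Of the netrins, Ntn4, a part of basement membranes, was lower in endothelium. It was at 5.49, 4.86 and 4.86 in marked and 7.60, 7.52 and 7.46 in unmarked muscle cells. The tumor arrays gave 5.58, 4.96, 5.56 and 4.92 in endothelium, 8.95, 8.91, 8.26 and 9.10 in marked and 7.36, 8.04, 8.08 and 7.88 in unmarked cells. The 3 tumor populations did not overlap, and Ntn4 was 5.47-fold lower in marked muscle cells (adjusted p = 2.54e-05) and 11.7-fold lower and 5.99-fold lower in tumor endothelium (adjusted p = 2.5e-07 and 4.35e-06). Ntn1, the classical netrin, was at 6.25, 6.05 and 5.89 in marked and 6.82, 6.63 and 6.55 in unmarked muscle cells, and its call there (1.52-fold lower, adjusted p = 0.0417) was lost without any 1 of the 6 arrays (0.121 to 0.158). Tumor endothelium gave 6.99, 6.82, 6.42 and 6.35, marked tumor cells 7.84, 7.54, 8.12 and 8.02 and unmarked tumor cells 6.79, 7.26, 7.08 and 7.25. Marked tumor cells lay above the others, and Ntn1 was 2.36-fold lower in endothelium than in them (adjusted p = 0.000158). Ntn3 averaged 4.91, 5.27, 5.24, 5.46 and 5.55.

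Unc5b, the netrin receptor known from endothelium, was higher in marked than in unmarked muscle cells, but not higher in tumor endothelium than in other tumor cells. Its means were 7.61 in marked muscle cells and 7.67 in tumor endothelium, against 5.30 in unmarked muscle and 7.89 in unmarked tumor cells. It was at 7.09, 7.79 and 7.94 in marked and 5.32, 5.35 and 5.23 in unmarked muscle cells. Its tumor values were 8.01, 7.38, 7.55 and 7.76 in endothelium, 8.64, 8.88, 8.67 and 8.51 in marked and 7.59, 7.98, 8.02 and 7.97 in unmarked cells. Tumor endothelium overlapped unmarked tumor cells, and marked tumor cells lay above both. Unc5b was 4.95-fold higher in marked muscle cells (log2 2.31, SE 0.21, adjusted p = 4.64e-06) and 2-fold lower in tumor endothelium than in marked tumor cells (adjusted p = 0.000921). Against unmarked tumor cells the difference of -0.22 did not pass (95% interval -0.61 to 0.18, adjusted p = 0.404).

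Unc5c was at 4.004, 4.10 and 4.08 in marked and 4.33, 4.04 and 3.87 in unmarked muscle cells, near the bottom of the scale. The tumor arrays gave 5.18, 5.05, 5.51 and 5.53 in endothelium, 6.62, 6.53, 6.60 and 6.34 in marked and 6.02, 6.23, 5.70 and 5.94 in unmarked cells. The 3 tumor populations did not overlap, and Unc5c was 2.31-fold lower and 1.57-fold lower in endothelium (adjusted p = 6.56e-05 and 0.0066, the latter 0.0523 in a fit of these groups alone). Unc5a was at 4.80, 4.99 and 4.88 in marked and 5.25, 5.44 and 5.67 in unmarked muscle cells, and its call there (1.47-fold lower, adjusted p = 0.00521) was lost without repeat 3 of either population (0.0628). In the tumor Unc5a ranged over 5.26 to 5.51 in endothelium, 5.30 to 5.60 in marked and 5.38 to 5.43 in unmarked cells, which overlapped. Unc5d averaged 4.84, 4.97, 5.14, 5.01 and 5.21.

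**Figure D3:**
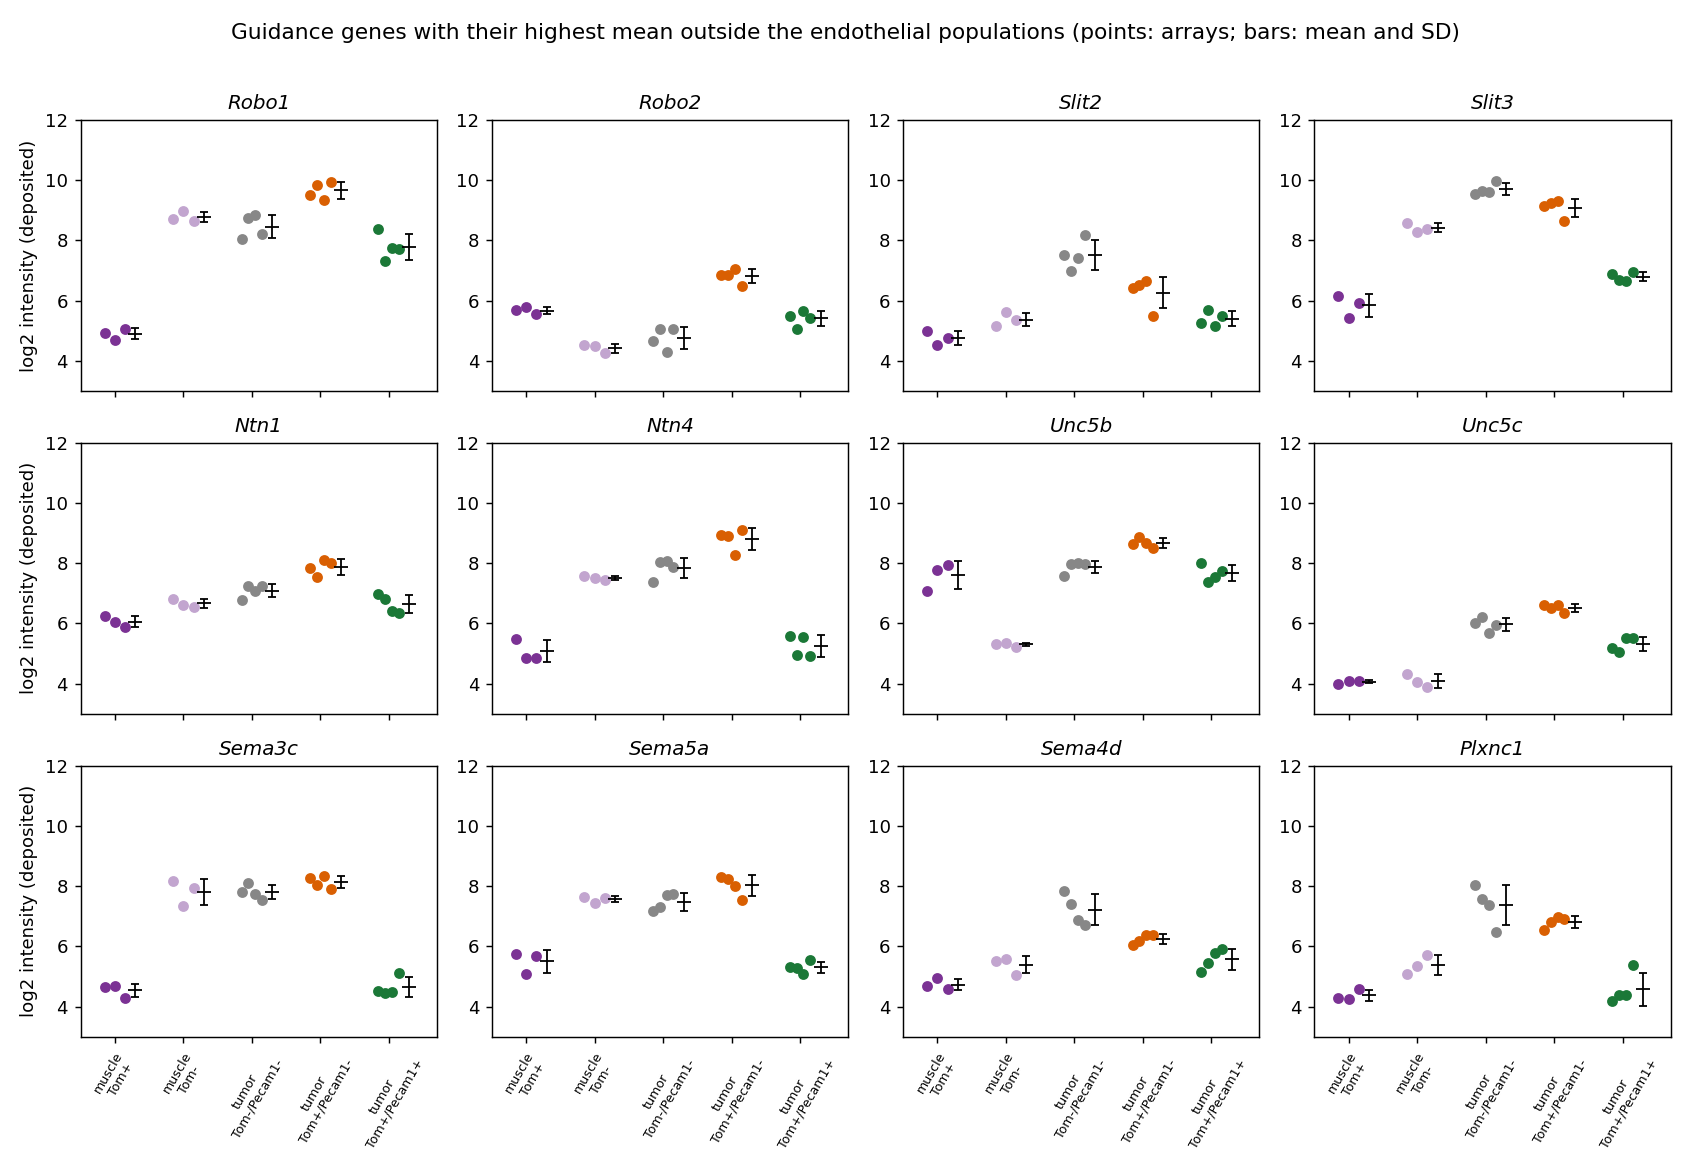
Deposited log2 intensity (vertical axis) of 12 guidance genes in 5 sorted populations (horizontal axis), with points for arrays and bars for mean and SD. Robo2 is highest in marked tumor cells (6.48 to 7.03), Slit2 in unmarked tumor cells (6.99 to 8.18), and Robo1 is at 4.69 to 5.05 in marked muscle cells and 7.33 to 8.37 in tumor endothelium.

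Among the Pecam1-negative tumor cells, those with the Cre mark had more Robo2, Robo1, Plxna2 and Sema6a, and less Slit2 and Plxna4, than those without. Of the 45 members 12 were higher (background 8.04%) and 6 lower (background 8.78%), with a median of 0.29 over the members and 0.03 over all genes. By role these were 2 secreted and 2 membrane semaphorins, 2 netrins, 2 plexins, 2 Robos and 2 Unc5 receptors on the higher side. The lower side held 1 secreted and 2 membrane semaphorins, 2 Slits and 1 plexin. The count fell from 18 to 11 without unmarked repeat 1, and reached 20 at most when 1 array was left out. At a difference of at least 2-fold 4 remained: Robo2, Plxna2, Robo1 and Slit2. Over all genes, 966 of 2693 remained.

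On the higher side, Robo2 was 4.12-fold higher (log2 2.04, SE 0.19, adjusted p = 9.71e-05), Plxna2 2.32-fold higher (adjusted p = 0.00635), Robo1 2.3-fold higher (adjusted p = 0.00803) and Sema6a 2-fold higher (adjusted p = 0.00947). For Robo2, 2 of 4 unmarked tumor arrays exceeded the 40th percentile, so the bottom of the scale sets the size of its fold. The differences of Sema3g, Plxnb1, Sema3b and Sema5b were 0.91, 0.86, 0.83 and 0.60 (adjusted p = 0.00747, 0.0024, 0.00232 and 0.00668). The netrins and their receptors depended on single arrays. Ntn4 was 1.95-fold higher (adjusted p = 0.0174) and lost its call without unmarked repeat 1 or marked repeat 1, 2 or 4 (0.059 to 0.0771). Ntn1 was 1.72-fold higher (adjusted p = 0.0118) and lost it without unmarked repeat 1 (0.0559). Unc5b was 1.73-fold higher (adjusted p = 0.0125) and lost it without unmarked repeat 1 or marked repeat 2 (0.0521 to 0.0596). Unc5c was 1.47-fold higher (adjusted p = 0.0309) and lost it without unmarked repeat 1, 3 or 4 or marked repeat 1, 2 or 3 (0.0592 to 0.116).

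On the lower side, Slit2 was 2.39-fold lower (log2 -1.26, SE 0.30, adjusted p = 0.0133, and 0.0736 in a fit of these groups alone) and Plxna4 1.77-fold lower (adjusted p = 0.00525). Sema4d was 1.97-fold lower (adjusted p = 0.0178) and lost its call without repeat 1 or 2 of either population (0.0555 to 0.0786). Sema4a was 1.74-fold lower (adjusted p = 0.028) and lost it without unmarked repeat 1 or 2 or marked repeat 1, 2 or 3 (0.0874 to 0.11). Slit3 was 1.53-fold lower (adjusted p = 0.0276) and lost it without unmarked repeat 2 or 4 or marked repeat 1 or 4 (0.064 to 0.0786). The Slit3 call was also lost without the day 38 tumors (log2 -0.37, adjusted p = 0.0711). In a fit of these groups alone Sema4d, Sema4a and Slit3 lost their calls (0.0588, 0.0853 and 0.097). Sema3e, the other lower member, was below the 40th percentile on all tumor arrays.

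Markers of other cells moved with this comparison. The leukocyte list averaged 8.90 to 9.95 in unmarked and 7.28 to 7.74 in marked tumor cells, 5 myeloid markers 9.07 to 9.96 and 7.63 to 7.99, and 5 tenocyte markers 9.27 to 9.62 and 7.40 to 7.94. In the other direction, 6 myogenic markers averaged 6.57 to 7.94 and 8.56 to 9.04, and 3 hedgehog targets 6.999 to 9.03 and 9.97 to 10.90. Their part in the differences was not tested.

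**Figure D4:**
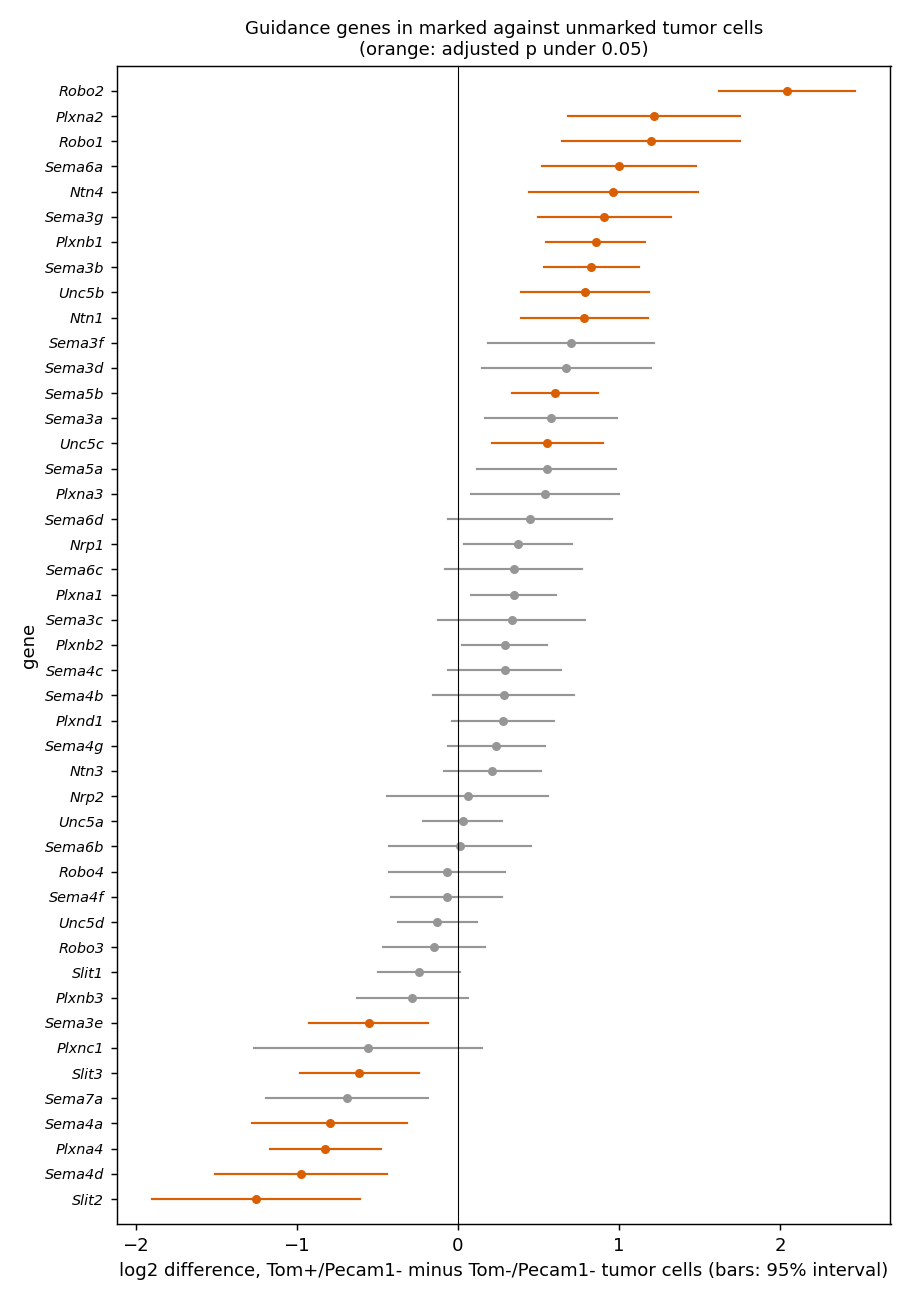
Log2 difference of the 45 guidance genes between marked and unmarked Pecam1-negative tumor cells, 4 arrays each, with 95% intervals that are not adjusted for the number of genes; color marks an adjusted p under 0.05. Robo2 is highest at 2.04 and Slit2 lowest at -1.26.

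Whether the endothelial contrast was equal in both tissues was tested as the difference between tumor endothelium minus unmarked tumor cells and marked minus unmarked muscle cells. Of the 45 members 7 had a higher contrast in the tumor (background 4.43%) and 4 a lower one (background 5.3%). Age, strain, SmoM2, the Pecam1 gate and the cells of the unmarked side differ together between the tissues and cannot be told apart. The contrast of Robo1 was higher in the tumor by 3.22 (SE 0.39, adjusted p = 0.000538) and that of Sema3f by 2.00 (SE 0.36, adjusted p = 0.00523). Those of Plxnb1 and Plxnb2 were higher by 1.16 and 0.97 (adjusted p = 0.0057 and 0.00711). Sema6a at 1.501 (adjusted p = 0.0152) lost its call without repeat 2 or 3 of either muscle population (0.0523 to 0.0707). Plxnb3 at 1.16 (adjusted p = 0.0107) lost it without repeat 2 of either (0.0557). Plxna1 at 0.76 (adjusted p = 0.0219) lost it without repeat 1 or 2 of either (0.0542 to 0.105) and with the mean of its probe sets (0.0503).

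On the lower side the contrast of Unc5b differed by -2.52 (SE 0.28, adjusted p = 0.000323) and that of Nrp1 by -1.88 (SE 0.24, adjusted p = 0.000732). As deposited, Unc5b averaged 7.61 in marked muscle cells and 7.67 in tumor endothelium. Its unmarked means were farther apart, at 5.30 in muscle and 7.89 in the tumor. Plxnc1 at -1.78 (adjusted p = 0.0421) lost its call without any 1 of the muscle arrays or of repeats 1 to 3 of unmarked tumor cells and tumor endothelium (0.0702 to 0.133). Sema4a at -1.36 (adjusted p = 0.0259) lost it without any 1 of the muscle arrays, unmarked tumor repeat 2 or endothelium repeat 1 (0.054 to 0.103). The leukocyte list was at 8.90 to 9.95 in unmarked tumor cells and 7.18 to 7.47 in unmarked muscle cells, and its part was not tested. The count of 11 was 6 without repeat 2 of either muscle population. Without muscle repeats 1 and 2, 1 array per muscle population remains, so no count is given. In that setting the contrast was 2.92 for Robo1, 1.72 for Sema3f, 1.05 for Plxnb1, 0.90 for Plxnb2 and -1.96 for Nrp1. Whether the calls stand without the repeats with salivary gland genes cannot be decided from 1 pair. With no replicate block the count was 19 (12 higher, 7 lower), which include the 11. Over all genes, 2754 passed with no block in place of 1558.

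**Figure D5:**
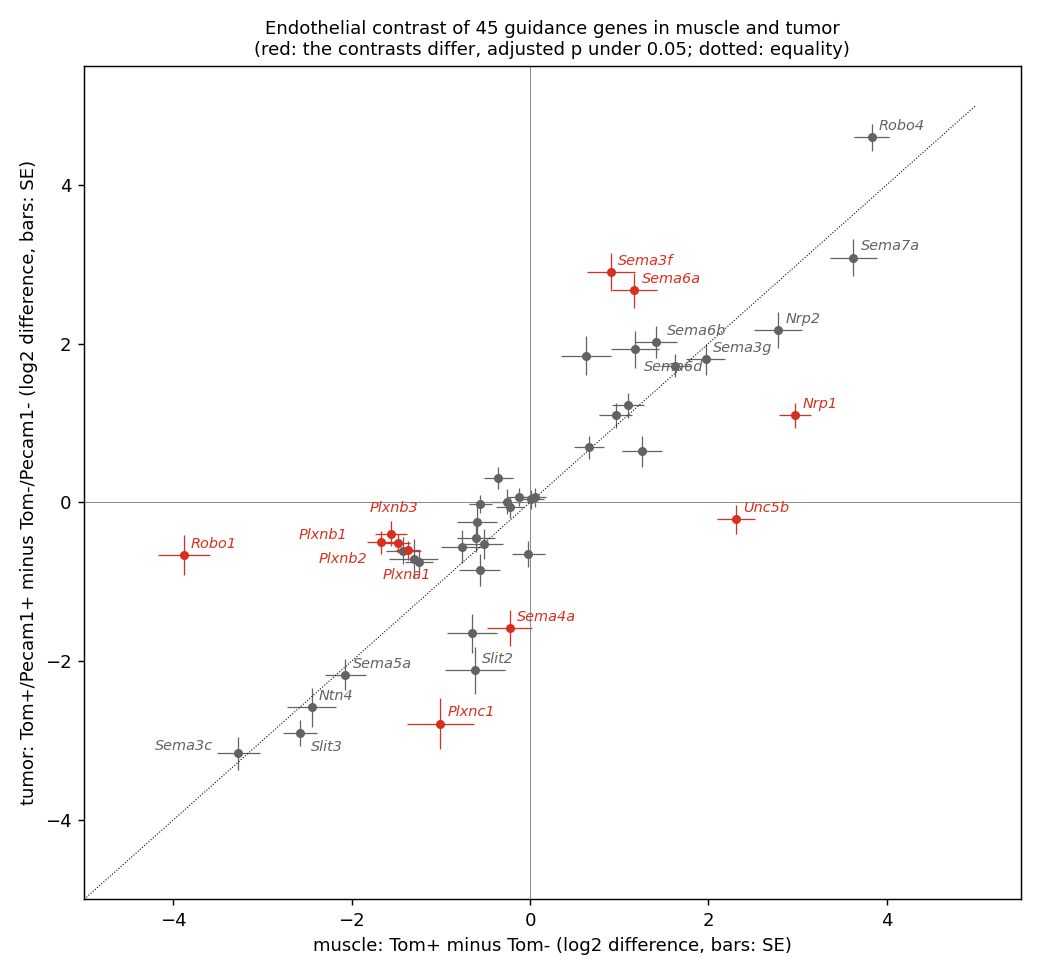
Log2 difference of the 45 guidance genes in muscle (horizontal axis, marked minus unmarked cells) and in tumor (vertical axis, endothelium minus unmarked cells), with SE bars; color marks a difference between the tissues at an adjusted p under 0.05. Robo1, at -3.88 and -0.67, and Unc5b, at 2.31 and -0.22, lie farthest from the line of equal contrasts.

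Set directly against marked muscle cells, with each array centred on its median, tumor endothelium had more Robo1, Sema3f and Plxnb2, and less Sema6a and Sema3b. Of the 45 members 9 were higher (background 15.7%) and 7 lower (background 18.5%). Deposited values of tumor endothelium lay 0.354 above those of marked muscle cells at the array medians. Without centring 24 members were higher and 2 lower, 11 of them shared with the 16. Over all 16011 genes tested, 8444 passed without centring and 5482 with it. The tumor values lack spread between repeats, so these p-values tend to be too small. Tissue, age, strain, SmoM2, the Pecam1 gate and the set of arrays differ together here and cannot be told apart. Without muscle repeats 1 and 2, 1 marked muscle array remains, so no count is given.

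In this comparison Robo1 was 5.85-fold higher (log2 2.55, SE 0.23, adjusted p = 5.85e-07), Sema3f 3.19-fold higher (adjusted p = 2.09e-05) and Plxnb2 3-fold higher (adjusted p = 8.26e-08). The differences of Sema6d and Plxna4 were 0.84 and 0.80 (adjusted p = 0.00617 and 0.000946). Sema3d and Unc5c also passed on the higher side (adjusted p = 7.44e-06 and 0.000136), with every marked muscle array below the 40th percentile, so the size of their differences is set by the bottom of the scale. Slit3 was 1.51-fold higher (adjusted p = 0.0161), lost without marked muscle repeat 2 (log2 0.39, adjusted p = 0.115). Plxnb1 was 1.35-fold higher (adjusted p = 0.0125), lost without marked muscle repeat 1 (0.0512) and with the mean of its probe sets (0.345).

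Sema3b was 1.63-fold lower (adjusted p = 0.000277), and Sema3e is counted as lower with all arrays of both populations below the 40th percentile. The other 5 lower members did not pass without centring: Sema6a (1.68-fold lower, adjusted p = 0.00796 centred and 0.101 as deposited), Robo2 (0.0129 and 0.227), Nrp1 (0.0125 and 0.43), Robo3 (0.0373 and 0.88) and Sema5a (0.0413 and 0.416). Among these, Nrp1 also lost its call without marked muscle repeat 3 (0.0509). Robo3 lost it without marked muscle repeat 1 or endothelium repeat 1 or 2 (0.0756 to 0.22), and Sema5a without marked muscle repeat 1 or 3 or endothelium repeat 1, 2 or 3 (0.0626 to 0.164).

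Lists of markers were read on the same centred scale in both endothelial populations. Lymphatic markers averaged 6.54 to 6.94 in tumor endothelium and 5.89 to 6.14 in marked muscle cells, ranges that did not overlap. Pericyte and smooth muscle markers averaged 7.62 to 8.14 and 8.19 to 9.56, and the 4 measured of 6 Schwann cell markers 4.46 to 4.59 and 4.94 to 5.23, both lower in tumor endothelium. The ranges overlapped for fibroblast markers (6.02 to 6.63 and 5.58 to 6.38), tenocyte markers (5.16 to 5.71 and 4.82 to 5.16), myogenic markers (4.99 to 6.03 and 5.14 to 5.36), hedgehog targets (5.66 to 6.76 and 5.64 to 5.83) and leukocyte markers (5.54 to 6.71 and 5.74 to 6.33). The lymphatic list averaged more in unmarked muscle (7.74), marked tumor (7.35) and unmarked tumor cells (7.275) than in either endothelial population. It therefore does not mark lymphatic endothelium alone in these samples. The part of other cells in the differences between the endothelial populations was not tested.

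Beyond these ligands and receptors, a list of 47 coreceptors and relay genes was read, of which 44 were measured and 41 tested. In muscle 11 of the 41 were higher in marked cells (background 15.6%) and 11 lower (background 16.8%). The smallest adjusted p-values were those of Plxdc2, a plexin domain protein (12.3-fold lower, adjusted p = 6.08e-07), Kdr, the growth factor receptor that partners Nrp1 (20.8-fold higher, adjusted p = 8.12e-07), and Srgap2, a GTPase activator of the Slit-Robo pathway (3.08-fold higher, adjusted p = 1.66e-06). In tumor endothelium 13 were higher (background 16.7%) and 15 lower (background 19.6%) than in marked tumor cells, and 11 higher (background 16.1%) and 12 lower (background 17.9%) than in unmarked tumor cells. Kdr was 37.5-fold higher and 41.4-fold higher there (adjusted p = 3.93e-08 and 3.3e-08), the netrin receptor Neo1 5.85-fold lower and 3.78-fold lower (adjusted p = 4.8e-08 and 5.2e-07), and Plxdc2 15.5-fold lower and 28.2-fold lower (adjusted p = 5.6e-08 and 1.46e-08).

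Between marked and unmarked tumor cells 7 of the pathway genes were higher (background 8.04%) and 5 lower (background 8.78%), led by the adhesion molecule L1cam (2.85-fold lower, adjusted p = 0.000474), Dpysl4, of the collapsin response mediators (1.95-fold higher, adjusted p = 0.000719), and the small GTPase Rap1b (1.54-fold lower, adjusted p = 0.00191). The contrast between tissues was higher in the tumor for 4 (background 4.43%) and lower for 6 (background 5.3%). It differed by -0.87 for Srgap2 (adjusted p = 0.00831). For Met, a receptor that associates with plexins, it differed by 2.31 (adjusted p = 0.0118, and 0.0519 to 0.0582 without repeat 2 or 3 of either muscle population). For Rap1b it differed by -0.67 (adjusted p = 0.0166, and 0.0842 without repeat 2 of either). On centred values 8 pathway genes were higher (background 15.7%) and 13 lower (background 18.5%) in tumor endothelium than in marked muscle cells, with Rgmb 1.89-fold lower, Mical2 1.78-fold lower and Itga1 1.97-fold lower (adjusted p = 5.38e-05, 0.000118 and 0.000261). Dcc, the main netrin receptor of axons, was too dim to be tested.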

How the data were processed

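RNA of 18 sorted cell samples was amplified and hybridised to arrays. The authors deposited log2 intensities of 41345 probe sets made by RMA in Partek, per the submitters' processing notes; versions, the array's build and any later step are not given in the sources used here. Probe sets were named through the platform's gene table (23521 with 1 symbol, 1814 with several, 16010 with none), and each of 22180 genes was read from its brightest probe set. Of these, 16011 genes had at least 3 arrays above the 40th percentile of their own array and were tested. 2 probe sets with several symbols that match the rule were left out.

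Differences were tested with limma 3.58.1 in R 4.3.3 (lmFit and eBayes, two-sided, Benjamini-Hochberg adjustment over all genes tested, threshold 0.05). Within a tissue, 1 fit of 18 arrays held population means and the repeat number within tissue as a block (8 residual degrees of freedom). Deviations of same-numbered muscle samples correlated at 0.12 to 0.195, so the numbers pair the samples there. In the tumor the repeat means were already removed (same-numbered -0.666 to -0.282), so that check is void. Tumor endothelium against marked muscle cells used no block, with every array centred on its median (13 residual degrees of freedom). The fit was tested on simulated data.

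Named genes followed a rule: up to 4 members per role with groups that do not overlap, by size of difference, got values per array, other members means, and the pathway list its 3 smallest adjusted p-values per comparison. The members, the lists and the rule were chosen with earlier results of these data known. Alternatives covered the block, the filter, the scaling, the choice of probe sets, the variance model, the threshold and the samples. Promoters came from RefSeq (GRCm38.p6), which held 37 of the 45 members. Tables and figures were made with Python 3.11.15, pandas 2.3.3 and matplotlib 3.10.9.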

Additional observations from a re-analysis of the deposited data

Results flagged for a closer look

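In 6 of 135 sets of 4 tumor arrays, 1 array of a guidance gene lay far from the other 3 by Dixon's criterion for sets of this size; chance alone flags about 1 in 20 sets, or 6.8 here. Nrp2 was at 7.252 in marked tumor repeat 1, below 7.478 to 7.523 in the others. Plxnb3 was at 5.921 in unmarked tumor repeat 1, above 5.486 to 5.558. Sema3c was at 5.134 in tumor endothelium repeat 4, above 4.461 to 4.516. Sema4a was at 7.012 in marked tumor repeat 4, above 6.502 to 6.519. Sema4f was at 4.497 in tumor endothelium repeat 2, below 4.712 to 4.746. Unc5b was at 7.591 in unmarked tumor repeat 1, below 7.967 to 8.016.

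For 11 members the endothelial contrast in the tumor, endothelium minus unmarked cells, differed from that in muscle, marked minus unmarked cells, by limma's test of the difference at an adjusted p of 0.05. It was higher in the tumor by 3.218 for Robo1, 1.995 for Sema3f, 1.501 for Sema6a, 1.164 for Plxnb1, 1.164 for Plxnb3, 0.968 for Plxnb2 and 0.764 for Plxna1. The difference was -2.522 for Unc5b, -1.876 for Nrp1, -1.782 for Plxnc1 and -1.355 for Sema4a.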

How the results depend on the processing

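Of 143 called results on guidance genes, recomputed under every alternative for 3007 values, 2711 kept their call, 296 lost it and 0 turned direction; 72 results kept their call under every alternative run. Without the replicate block that pairs the samples, 19 members differed in endothelial contrast between tissues in place of 11. That count was 20 with array weights, 18 without the day 38 tumors, 6 at an adjusted p of 0.01, and 6 to 15 when any 1 array was left out. Marked against unmarked tumor cells gave 18 members, 9 at an adjusted p of 0.01, 4 at 2-fold or more, and 11 to 20 without 1 array. Tumor endothelium against unmarked tumor cells gave 32, 21 at 2-fold or more, and 28 to 33 without 1 array; against marked tumor cells it gave 36, and 33 to 36 without 1 array. The muscle comparison gave 30, and 25 to 27 without 1 array. Tumor endothelium against marked muscle cells gave 16 on centred values, 26 on values as deposited, 10 at an adjusted p of 0.01, 4 at 2-fold or more, 8 without muscle repeats 1 and 2, and 14 to 16 without 1 array. Stricter thresholds lower a count by construction. For the other settings, those with fewer samples included, the cause was not tested. Over all genes, the endothelial contrast gave 1558, and 2754 without the block. It gave 2605 with array weights, 2643 without the day 38 tumors and 621 at an adjusted p of 0.01. Marked against unmarked tumor cells gave 2693, 1122 at an adjusted p of 0.01 and 966 at 2-fold or more. Tumor endothelium against unmarked tumor cells gave 5448, and 2297 at 2-fold or more. Against marked muscle cells it gave 5482, 8444 as deposited, 3309 at an adjusted p of 0.01 and 737 at 2-fold. Among 26 results of other named genes, 30 of 564 values lost the call and 0 turned direction. In muscle, leaving out 1 array leaves its partner unpaired, so either of a pair gives the same fit. Signal limits Sema3e, Sema4f, Sema4g and Robo3, near the bottom of the scale on most arrays. It limits Sema3d, Unc5c and Plxnc1 in marked muscle cells, and Sema3c, Plxna3 and Plxnc1 in tumor endothelium. It also limits Robo2 in unmarked muscle and unmarked tumor cells.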
